A study of Mus musculus with 9 samples.

Results

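Peroxins are the proteins that build and supply the peroxisome, a small organelle that shortens very long fatty acids, makes the first steps of ether lipids and breaks down hydrogen peroxide. The genes described here are Pex26 and 7 other genes of the import machinery, Pex2, Pex3, Pex5, Pex6, Pex7, Pex13 and Pex14. They make up 8 of the 36528 genes in the files and were looked up by gene symbol. Pex26 was picked because its reads differed between the genotypes, and the other 7 for their place in the same machinery. The genotype values of all 8 are therefore given as a description, without a test.

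The samples were brain cells of mice aged 11 to 12 months, sorted for Cd11b, a surface integrin of microglia and other myeloid cells. Of the 9 libraries, 5 are labelled Tau-P301L (1 and 2 from females, 3 to 5 from males) and came from mice that carry a tau transgene with the P301L change known from inherited frontotemporal dementia. As controls, 4 wild-type libraries (1 and 2 from females, 3 and 4 from males) came from littermates without the transgene. The promoter that drives the transgene is not given in the sources used here, and whether each library came from its own animal is not stated, so the p-values below measure the spread between these samples, which may be technical.

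Matrix proteins enter the peroxisome already folded. The receptor Pex5 binds cargo with a C-terminal targeting signal, and Pex7 binds the few cargoes with an N-terminal one. The loaded receptor docks on Pex13 and Pex14 at the membrane, releases its cargo, is tagged with ubiquitin by a ligase that includes Pex2, and is pulled back out by an ATPase complex with Pex6, which Pex26 holds on the peroxisomal membrane. Pex3 acts earlier, as a docking site for the insertion of membrane proteins. In humans, loss of any of several of these genes causes Zellweger spectrum disorders, which damage brain and liver.

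The libraries held 1.49 to 2.93 M reads counted in genes in the Tau-P301L group and 2.68 to 3.79 M reads in the wild-type group. On the scale used here, counts-per-million after TMM scaling (CPM), 3 reads correspond to 0.953 to 2.09 CPM in Tau-P301L libraries and 0.831 to 1.15 CPM in wild-type libraries. Tau-P301L library 5 was the shallowest, and Tau-P301L libraries 3 and 5 stood apart: 9928 and 9063 genes reached 10 reads in them, and 10589 to 12101 in each of the rest. Library 3 was the deepest of the Tau-P301L group, at 2.93 M reads. Its share of mitochondrial reads, 23.1%, was the highest, and the other libraries lay between 9.30 and 20.0%. The microglial genes chosen as markers were abundant: their 8 genes summed to 8247 to 14800 CPM in Tau-P301L libraries and 10260 to 14191 CPM in wild-type libraries. Genes of neurons summed to 75.0 to 165 CPM in Tau-P301L libraries and 92.4 to 191 CPM in wild-type libraries. Those of oligodendrocytes summed to 327 to 1441 CPM in Tau-P301L libraries and 510.0 to 700.1 CPM in wild-type libraries. In all 8 marker lists, which also covered astrocytes, endothelial and mural cells, neutrophils, border macrophages and lymphocytes, the summed levels of the groups overlapped. Single markers leaned one way in 3 lists: estimates were lower in Tau-P301L for 7 of 8 microglial genes (median log2 fold change -0.26) and 6 of 6 tested neuronal genes (-0.53), and higher for 5 of 6 astrocyte genes (0.44). Their part in the results below was not tested. In bulk samples such as these, fewer cells of a type and less RNA per cell cannot be told apart.

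Pex26 (gene 74043) lies on chromosome 6 at 121183217 to 121198837 of GRCm38.p6, on the plus strand, and Pex6 (gene 224824) on chromosome 17 at 46711476 to 46725543, also on the plus strand. Their promoters are shown because Pex26 was the member whose reads separated the genotypes and Pex6 is the ATPase that the Pex26 protein binds. Each runs from 250 bases before a transcript start to 50 bases after it, 5′ to 3′, as RefSeq gives it on GRCm38.p6, at chr6:121183417-121183716 and chr17:46711226-46711525. For Pex26 the start that RefSeq's promoter table uses lies inside the span given above. Capitals mark matches to 5 motifs, searched on both strands.
Pex26: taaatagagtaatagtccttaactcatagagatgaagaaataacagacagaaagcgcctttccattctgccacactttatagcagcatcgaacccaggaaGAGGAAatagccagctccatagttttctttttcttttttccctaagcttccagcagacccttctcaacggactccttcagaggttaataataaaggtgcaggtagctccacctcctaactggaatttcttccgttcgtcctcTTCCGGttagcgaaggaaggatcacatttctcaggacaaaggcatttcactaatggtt
Pex6: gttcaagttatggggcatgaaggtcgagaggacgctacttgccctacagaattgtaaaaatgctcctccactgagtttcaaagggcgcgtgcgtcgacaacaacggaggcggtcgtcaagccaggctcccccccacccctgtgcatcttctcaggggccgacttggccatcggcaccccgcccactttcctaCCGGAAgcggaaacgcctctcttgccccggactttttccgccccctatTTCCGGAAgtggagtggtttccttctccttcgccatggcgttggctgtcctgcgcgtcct
The motifs were the ETS core CCGGAA, the core GAGGAA bound by the myeloid factor PU.1, the CCAAT box, the E-box CACGTG and the PPAR direct repeat with a spacer of 1 base. The Pex26 window held 1 ETS core and 1 GAGGAA, and the Pex6 window 3 ETS cores, of which 2 overlap on opposite strands. Of 32851 promoter windows in the table, 14.9% held an ETS core and 28.3% a GAGGAA. Neither window held a CCAAT box, an E-box or the PPAR repeat, which occurred in 37.4%, 7.15% and 0.0396% of windows. The Pex26 window had 7 CpG dinucleotides, which is the median of the table, and a GC content of 42.7%. The Pex6 window had 22 and 59.3%. Over the 7 members with an entry, 9 windows held 7 to 39 CpG, with Pex26 at the low end. Pex5 had windows with 9, 22 and 39 CpG. The Pex26 window lies inside its gene span, unlike that of Pex6, so these counts come from unlike regions.

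Pex26 was sparse in the Tau-P301L libraries. Its reads numbered 9, 5, 9, 9 and 1 in Tau-P301L libraries 1 to 5, against 53, 41, 20 and 69 in wild-type libraries 1 to 4. The highest Tau-P301L count was under the lowest wild-type count in both sexes.

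In CPM, Pex26 stood at 2.86, 1.79, 4.04, 3.85 and 0.698 in Tau-P301L libraries 1 to 5. In wild-type libraries 1 to 4 it stood at 16.2, 14.0, 7.65 and 19.1 CPM. The Tau-P301L mean was 2.65 ± 1.41 CPM (SD, n = 5) and the wild-type mean 14.2 ± 4.87 CPM (SD, n = 4), giving a log2 fold change of -2.39 (SE 0.58). The value of Tau-P301L library 5 rests on 1 read and lies under the level of 3 reads in that library. Without Tau-P301L libraries 3 and 5 the log2 fold change was -2.32.

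Counting error alone leaves a wide band around each of these levels. The exact binomial 95% intervals reached from 0.0177 to 7.66 CPM over the Tau-P301L libraries and from 4.67 to 24.2 CPM over the wild-type libraries. The upper bounds of Tau-P301L libraries 1, 3 and 4, at 5.43, 7.66 and 7.31 CPM, exceeded the lower bound of wild-type library 3, at 4.67 CPM. Those of Tau-P301L libraries 2 and 5, at 4.17 and 3.89 CPM, did not. All 5 upper bounds lay below the lower bounds of wild-type libraries 1, 2 and 4, which were 12.2, 10.0 and 14.9 CPM.

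A share of reads within the family does not depend on how libraries are scaled, but it reuses the Pex26 reads that led to the pick. It is therefore no separate support. Pex26 took 2.69, 2.22, 3.98, 4.79 and 1.25% of the reads of the 8 peroxins in Tau-P301L libraries 1 to 5. In wild-type libraries 1 to 4 it took 16.5, 14.9, 9.09 and 17.4%. The groups did not overlap on this measure, with a Tau-P301L mean of 2.99 ± 1.41% (SD, n = 5) and a wild-type mean of 14.5 ± 3.72% (SD, n = 4). Summed over libraries, these were 33 of 1053 reads in Tau-P301L and 183 of 1214 reads in wild-type.

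**Figure D1:**
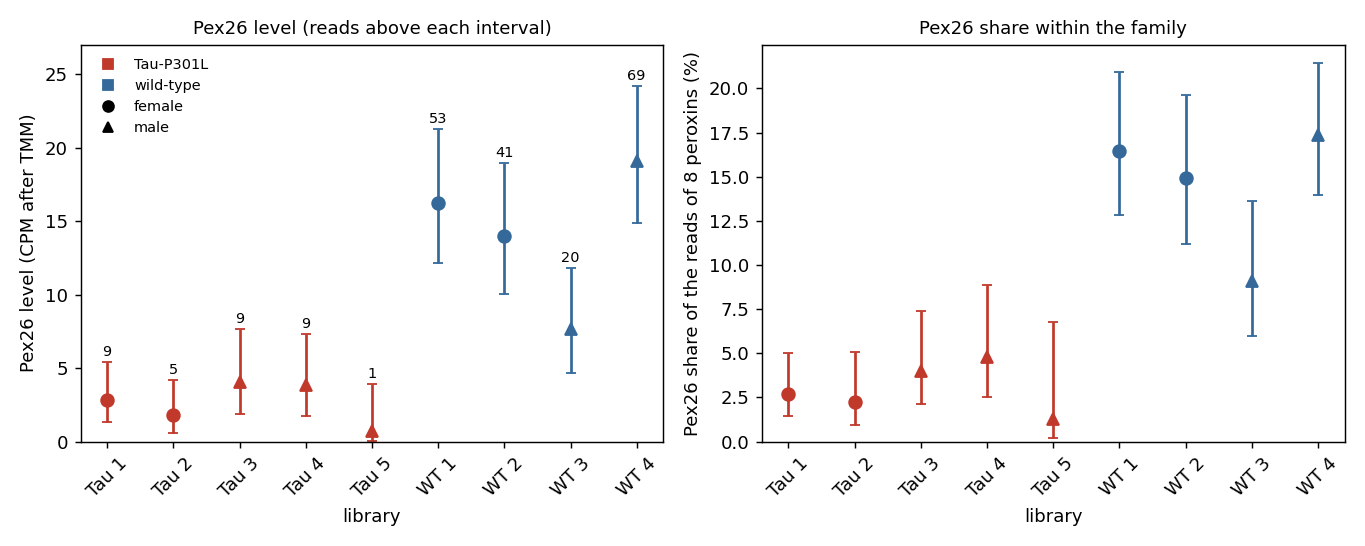
Pex26 in each library, as CPM after TMM scaling with exact binomial 95% intervals and the number of reads above each interval (left), and as a percentage of the reads of the 8 peroxins with Wilson 95% intervals (right). Points are libraries, coloured by genotype and shaped by sex. The 5 Tau-P301L libraries sit between 0.698 and 4.04 CPM and the 4 wild-type libraries between 7.65 and 19.1 CPM.

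Pex6, the ATPase anchored by Pex26, overlapped between the genotypes. It had 23, 30, 20, 30 and 1 reads in Tau-P301L libraries 1 to 5, and 51, 28, 35 and 47 in wild-type libraries 1 to 4. The Tau-P301L mean was 8.10 ± 4.62 CPM (SD, n = 5) and the wild-type mean 12.9 ± 2.51 CPM (SD, n = 4), giving a log2 fold change of -0.64 (SE 0.55). Library 5 of the Tau-P301L group had 1 read of Pex6, as it had 1 of Pex26. Without that library the log2 fold change of Pex6 was -0.38, and with library size added to the model it was 0.09. Pex26 had -2.21 and -1.89 in those fits. Since Pex26 was picked from this contrast, nothing is read from that difference.

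The receptors showed estimates in the other direction, with wide spread. Pex5 had 28, 44, 21, 17 and 8 reads in Tau-P301L libraries 1 to 5, against 49, 10, 4 and 34 in wild-type libraries 1 to 4. The Tau-P301L mean was 9.38 ± 3.85 CPM (SD, n = 5) and the wild-type mean 7.34 ± 6.12 CPM (SD, n = 4), giving a log2 fold change of 0.42 (SE 0.60). Wild-type libraries 2 and 3 held the lowest levels, 3.41 and 1.53 CPM, and wild-type library 1, at 15.02 CPM, nearly the highest, so the groups overlapped. The log2 fold change was 0.08 without wild-type library 3 and 1.01 without wild-type library 4.

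Pex7 had 10, 7, 30, 27 and 4 reads in Tau-P301L libraries 1 to 5, and 7, 8, 4 and 18 in wild-type libraries 1 to 4. Its Tau-P301L mean was 6.69 ± 5.35 CPM (SD, n = 5) and its wild-type mean 2.85 ± 1.51 CPM (SD, n = 4), with a log2 fold change of 0.93 (SE 0.72). Tau-P301L male libraries 3 and 4, at 13.5 and 11.5 CPM, stood above the rest, and the other 7 libraries lay between 1.53 and 4.98 CPM.

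The docking factors had genotype estimates smaller than their SE, which does not show that their levels were equal. Pex13 had 91, 42, 47, 45 and 22 reads in Tau-P301L libraries 1 to 5, against 43, 51, 58 and 55 in wild-type libraries 1 to 4. Its Tau-P301L mean was 19.9 ± 5.65 CPM (SD, n = 5) and its wild-type mean 17.0 ± 3.87 CPM (SD, n = 4; log2 fold change 0.24, SE 0.39). The highest value, 28.9 CPM, was that of Tau-P301L library 1, and without it the log2 fold change was -0.01.

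Pex14 had 9, 12, 4, 23 and 8 reads in Tau-P301L libraries 1 to 5, and 16, 10, 12 and 15 in wild-type libraries 1 to 4. The Tau-P301L mean was 4.87 ± 3.12 CPM (SD, n = 5) and the wild-type mean 4.26 ± 0.648 CPM (SD, n = 4; log2 fold change 0.11, SE 0.68). The Tau-P301L libraries lay on both sides of the narrow wild-type range of 3.41 to 4.90 CPM.

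Pex2, a ubiquitin ligase subunit, had 108, 72, 57, 13 and 30 reads in Tau-P301L libraries 1 to 5, and 68, 75, 43 and 83 in wild-type libraries 1 to 4. Its Tau-P301L mean was 22.4 ± 10.6 CPM (SD, n = 5) and its wild-type mean 21.5 ± 3.86 CPM (SD, n = 4; log2 fold change 0.07, SE 0.42). Tau-P301L libraries 1 and 4 marked the highest and lowest levels of all 9.

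Pex3, the membrane docking site, had 56, 13, 38, 24 and 6 reads in Tau-P301L libraries 1 to 5, against 35, 52, 44 and 76 in wild-type libraries 1 to 4. Its Tau-P301L mean was 10.8 ± 6.51 CPM (SD, n = 5) and its wild-type mean 16.6 ± 4.30 CPM (SD, n = 4; log2 fold change -0.60, SE 0.49). Tau-P301L libraries 1 and 3, at 17.8 and 17.0 CPM, lay within the wild-type range, and libraries 2, 4 and 5 below it.

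Over the family, the Tau-P301L estimate was higher for 5 members and lower for 3, with a median log2 fold change of 0.09. Other tools, scalings or covariates, left-out libraries, or fits to females or males alone turned the sign of 4 of these estimates. Over all these alternatives they ranged from -0.34 to 0.37 for Pex2, -0.90 to 0.09 for Pex6, -0.01 to 0.52 for Pex13 and -0.24 to 0.40 for Pex14. With 1 library left out, Pex3 ran from -1.08 (without Tau-P301L library 1) to -0.39 (without Tau-P301L library 2), and Pex7, where it passed the filter, from 0.52 (without wild-type library 3) to 1.13 (without Tau-P301L library 2). All 8 passed the low-count filter. The groups did not overlap for 1 of the 8, Pex26, while the same held for 2.48% of the 12250 genes tested, 1.18% with lower and 1.31% with higher values in Tau-P301L. Since Pex26 was picked from this contrast, nothing is read from that count.

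**Figure D2:**
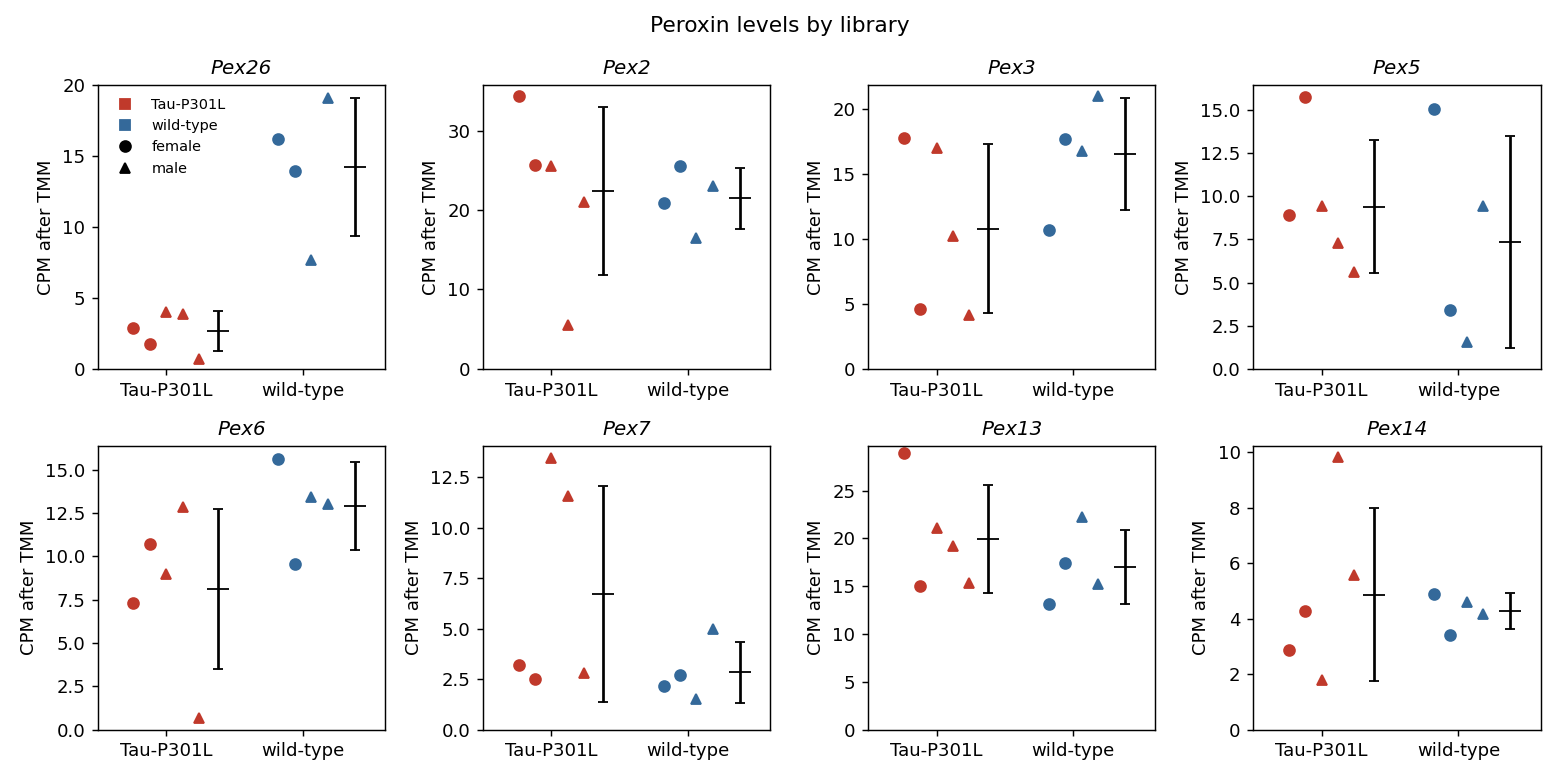
Level of each of the 8 peroxins in every library, in CPM after TMM scaling, with the Tau-P301L libraries on the left of each panel and the wild-type libraries on the right. Circles are females, triangles males, and the black bar gives mean and SD. The groups are apart for Pex26 and overlap in the other 7 panels.

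Levels of different genes are compared per length, in the RPKM values deposited by the authors. The annotation behind those lengths is not given in the sources used here, and the order between genes could differ with other lengths. In the Tau-P301L libraries Pex2 was highest at 1.30 ± 0.608 RPKM (SD, n = 5) and was followed by Pex13, Pex3, Pex7, Pex5, Pex6 and Pex14, the last at 0.612 ± 0.393 RPKM. Neighbours among these 7 differed by less than their SD and their ranges overlapped. Pex26 came last at 0.144 ± 0.0779 RPKM, and its highest library, at 0.224 RPKM, lay just under the lowest of Pex14, at 0.230 RPKM.

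In the wild-type libraries Pex3 led at 1.66 ± 0.427 RPKM (SD, n = 4), followed by Pex2, Pex6, Pex13, Pex26, Pex14, Pex5 and Pex7. Pex26 was the fifth of the 8 at 0.765 ± 0.254 RPKM, and Pex7 last at 0.362 ± 0.188 RPKM. Ranges of neighbours overlapped throughout, and among neighbours the difference exceeded the larger SD for Pex2 and Pex6 alone, at 1.24 ± 0.217 and 0.972 ± 0.186 RPKM. Over all 9 libraries the members averaged 0.420 RPKM for Pex26 to 1.34 RPKM for Pex3, against a median of 1.26 RPKM over the genes tested.

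**Figure D3:**
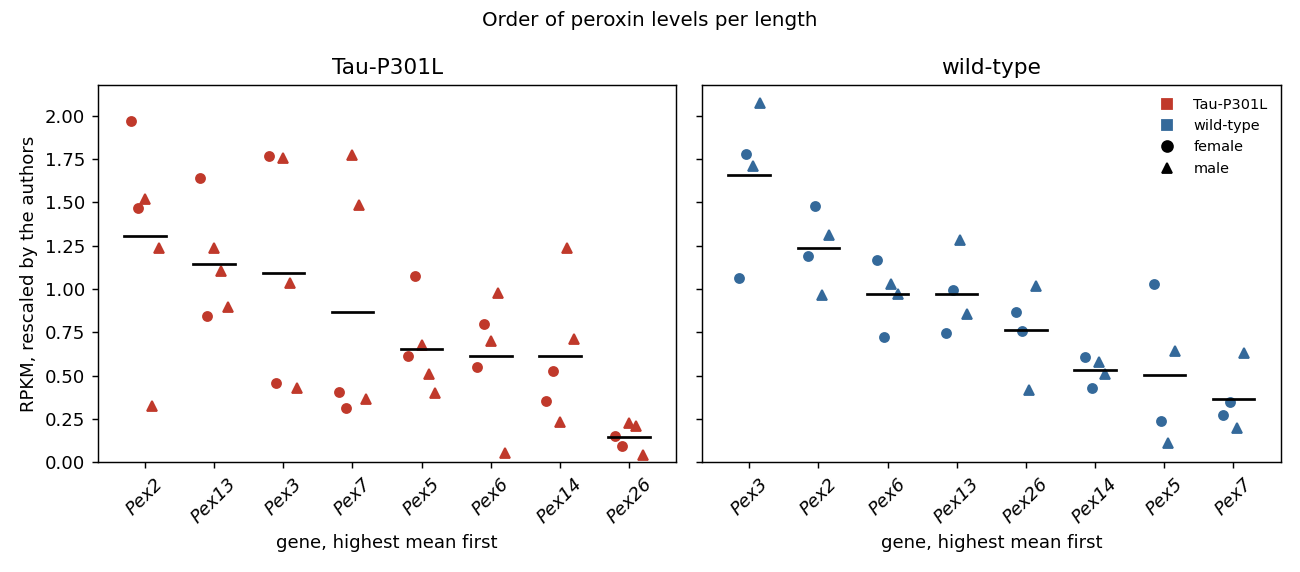
Levels of the 8 peroxins per length in the authors' RPKM, with genes ordered by their mean in Tau-P301L (left) and in wild-type libraries (right). Points are libraries, circles females and triangles males, and the lines are means. Pex26 is last in the Tau-P301L panel at 0.144 RPKM and the fifth in the wild-type panel at 0.765 RPKM.

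Sex was not used to choose the genes and could be tested. None of the 8 members passed for males over females in edgeR's quasi-likelihood test, where 6 of 12250 genes did (0.049%), and 0 of the 8 had an unadjusted p under 0.05, beside 2.43% of all genes. DESeq2 and limma-voom called 0 of the 8 as well. The smallest p was that of Pex7 (log2 fold change 1.13, SE 0.72, unadjusted p = 0.13, edgeR adjusted p = 0.9999), with 6.86 ± 5.34 CPM in males (SD, n = 5) and 2.64 ± 0.432 CPM in females (SD, n = 4). Pex26 stood at 7.07 ± 7.17 CPM in males (SD, n = 5) and 8.72 ± 7.45 CPM in females (SD, n = 4), with a log2 fold change of 0.07 (SE 0.57) after the genotype term.

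Whether the genotype difference itself depended on sex was asked with an interaction term. For Pex26 the log2 fold change was -2.15 in males alone and -2.68 in females alone, and the interaction was 0.52 (SE 1.20, edgeR adjusted p = 0.999986). Over the 8 members the interaction ranged from -0.57 for Pex2 to 1.27 for Pex7, none with an unadjusted p under 0.05. Of 13302 genes in that fit 0 were called (0%), 526 (3.95%) had an unadjusted p under 0.05, and limma-voom called 0. DESeq2, with its own filter and 24747 genes, called 3. The SE were 0.81 to 1.43 on the log2 scale, and every member's interaction estimate was smaller than its SE. No detection limit was computed, so the lack of a call does not show that an interaction is absent.

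The rest of the peroxisomal pathway was read from the same genotype fit, in 8 lists of 68 genes, of which 46 were tested. None of the 46 was called (edgeR, smallest adjusted p = 0.758), beside 1 of 12250 genes over all (0.00816%). In edgeR 2 of the 46 had an unadjusted p under 0.05, against 778 of 12250 genes over all (6.35%). DESeq2 and limma-voom also called 0, with 2 and 3 genes of these lists at an unadjusted p under 0.05. Estimates were higher in Tau-P301L for 25 of the 46 and lower for 21, with a median log2 fold change of 0.09, while the median of all tested genes was 0.00. The means below carry the SD over 5 Tau-P301L and 4 wild-type libraries, and the value before each SE is the log2 fold change.

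Among the genes listed as other peroxins 4 of 7 were tested, 2 with higher and 2 with lower estimates and a median of -0.18. These 4 include Pex5l, which is named for its likeness to Pex5 and had a higher estimate (log2 fold change 0.085, SE 0.55). Pex19, the carrier that brings membrane proteins to Pex3, had a Tau-P301L mean of 19.3 ± 6.92 CPM and a wild-type mean of 11.2 ± 4.44 CPM (log2 fold change 0.78, SE 0.45, edgeR adjusted p = 0.789). Pex11a, which elongates the peroxisomal membrane before division, had a Tau-P301L mean of 7.13 ± 5.28 CPM and a wild-type mean of 9.68 ± 4.03 CPM (-0.49, SE 0.61, edgeR adjusted p = 0.908). Pex10, Pex11g and Pex16 had 0 to 12 reads a library and were not tested.

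The ubiquitin cycle of the import receptor had 4 of 5 tested genes with higher estimates and a median of 0.31, and 0 called. Its smallest p values were those of Ube2d2a, a ubiquitin-conjugating enzyme (Tau-P301L mean 51.8 ± 22.6 CPM, wild-type mean 34.7 ± 13.7 CPM, log2 fold change 0.56, edgeR adjusted p = 0.793), and Zfand6, a zinc-finger protein whose human form binds PEX6 (Tau-P301L mean 55.7 ± 19.6 CPM, wild-type mean 41.4 ± 4.74 CPM, 0.43, edgeR adjusted p = 0.824).

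Membrane transport and tethering had 6 tested genes, 4 higher and 2 lower, with a median of 0.20. Acbd5, which ties peroxisomes to the endoplasmic reticulum, had a Tau-P301L mean of 60.8 ± 6.58 CPM (SD, n = 5) and a wild-type mean of 39.8 ± 8.67 CPM (SD, n = 4; log2 fold change 0.61, SE 0.28, edgeR adjusted p = 0.776). Its groups overlapped at 1 pair of libraries, Tau-P301L library 4 at 50.03 CPM and wild-type library 4 at 52.1 CPM. Slc25a17, a carrier of cofactors across the peroxisomal membrane, had a Tau-P301L mean of 16.7 ± 5.68 CPM and a wild-type mean of 13.7 ± 5.54 CPM (0.29, SE 0.43, edgeR adjusted p = 0.927).

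Beta-oxidation had the most tested genes, 12 of 15, with 4 higher and 8 lower estimates and a median of -0.10. Ehhadh, the bifunctional enzyme, was sparse, with a Tau-P301L mean of 2.31 ± 1.56 CPM and a wild-type mean of 4.78 ± 1.44 CPM (log2 fold change -1.01, SE 0.74, edgeR adjusted p = 0.824). Crat, carnitine acetyltransferase, had a Tau-P301L mean of 48.6 ± 9.10 CPM and a wild-type mean of 61.1 ± 14.4 CPM (-0.33, SE 0.29, edgeR adjusted p = 0.859). Alpha-oxidation and ether lipid synthesis had 3 higher and 2 lower of 5 tested genes, with a median of 0.17. Far1, the reductase that supplies fatty alcohol, had a Tau-P301L mean of 190.2 ± 37.0 CPM and a wild-type mean of 142.5 ± 33.0 CPM (0.42, SE 0.24, edgeR adjusted p = 0.789). Agps, a cargo of Pex7, had a Tau-P301L mean of 112 ± 29.4 CPM and a wild-type mean of 99.98 ± 17.8 CPM (0.17, SE 0.25, edgeR adjusted p = 0.925).

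Of the redox and other matrix enzymes 5 of 15 were tested, 3 higher and 2 lower, with a median of 0.24. Cat, catalase, the main matrix enzyme against hydrogen peroxide, had a Tau-P301L mean of 41.2 ± 20.4 CPM and a wild-type mean of 22.9 ± 7.67 CPM (log2 fold change 0.77, SE 0.40, edgeR adjusted p = 0.789). Tau-P301L libraries 3 and 5 had its highest levels, 63.2 and 61.4 CPM, and without them its log2 fold change was 0.19. Tysnd1, the protease that trims imported enzymes, had a Tau-P301L mean of 2.41 ± 2.12 CPM and a wild-type mean of 5.43 ± 3.18 CPM (-1.23, SE 0.80, edgeR adjusted p = 0.803), and without those libraries its log2 fold change was -0.76.

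Division and pexophagy had 4 higher and 2 lower of 6 tested genes, with a median of 0.22. Dnm1l, the dynamin that divides peroxisomes and mitochondria, stood at 82.0, 68.9, 122, 66.7 and 66.3 CPM in Tau-P301L libraries 1 to 5, against 55.8, 54.6, 37.9 and 52.6 CPM in wild-type libraries 1 to 4. It was the single gene of the 46 whose groups did not overlap, and it did not pass the test, where 2.48% of all tested genes had groups that did not overlap (log2 fold change 0.70, SE 0.29, edgeR adjusted p = 0.758). Nbr1, a receptor for the autophagy of peroxisomes, had a Tau-P301L mean of 107.3 ± 27.5 CPM and a wild-type mean of 95.9 ± 26.9 CPM (0.20, SE 0.26, edgeR adjusted p = 0.914).

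Of 5 regulators 3 were tested, 1 higher and 2 lower, with a median of -0.51. Ppargc1a, a coactivator of organelle biogenesis, had a log2 fold change of 1.16 (SE 0.70, edgeR adjusted p = 0.789), a Tau-P301L mean of 24.1 ± 30.8 CPM and a wild-type mean of 7.42 ± 2.02 CPM, with 76.8 CPM in Tau-P301L library 5 and 25.1 CPM in library 3. Without those libraries its log2 fold change was -0.25. Ppard, a fatty acid receptor, had a Tau-P301L mean of 46.5 ± 24.5 CPM and a wild-type mean of 71.2 ± 28.03 CPM (-0.60, SE 0.38, edgeR adjusted p = 0.803; -0.21 without those libraries), and Ppara was too sparse to test.

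**Figure D4:**
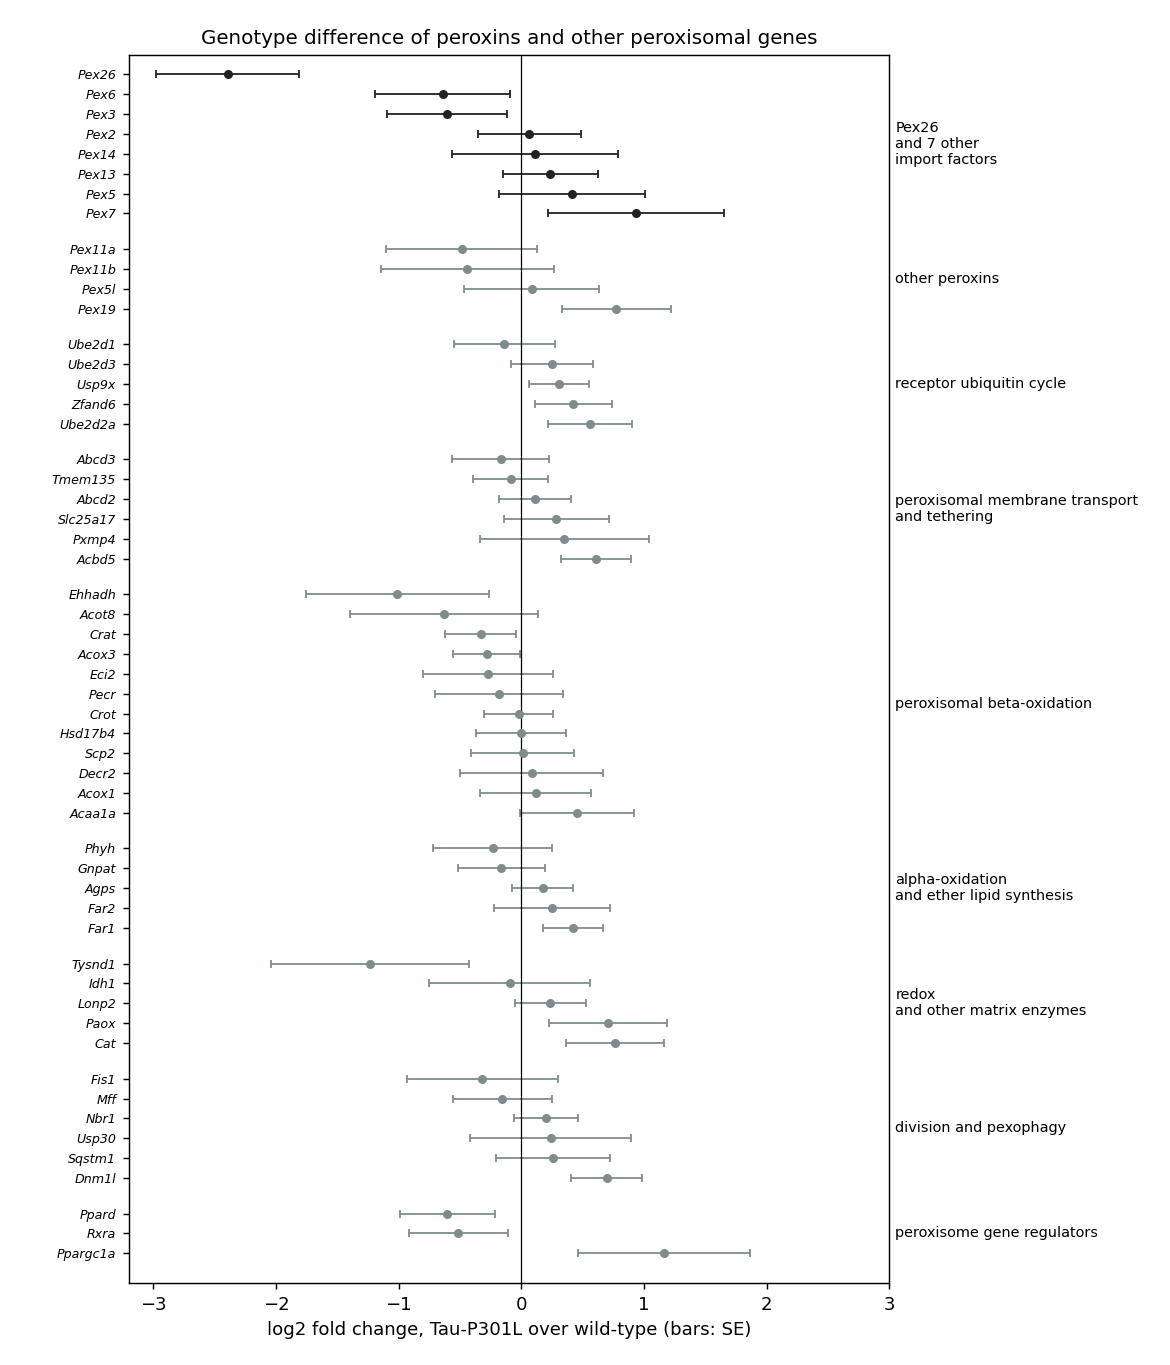
Genotype difference of the 8 peroxins (black) and of the 46 other tested peroxisomal genes (grey) by list, as log2 fold change of Tau-P301L over wild-type with SE. Pex26, picked from this contrast, is at -2.39, and the other genes shown range from -1.23 for Tysnd1, whose SE bar overlaps that of Pex26, to 1.16 for Ppargc1a.

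The genes beside Pex26 on chromosome 6 were looked at for a shared pattern. Mical3, which lies 9.5 kb before Pex26, had a Tau-P301L mean of 92.7 ± 25.4 CPM (SD, n = 5) and a wild-type mean of 126.6 ± 34.1 CPM (SD, n = 4; log2 fold change -0.45, SE 0.27, edgeR adjusted p = 0.789). Usp18, an interferon-induced protease 47.1 kb after it, had a Tau-P301L mean of 4.85 ± 1.963 CPM and a wild-type mean of 4.03 ± 2.47 CPM (0.37, SE 0.70, edgeR adjusted p = 0.940). Tuba8 had 0 to 2 reads a library, the long noncoding Gm38651 0 to 3 and Gm30842 none. Unlike Pex26 and Pex6, the other 6 members lie on the minus strand. Pex5 is on chromosome 6 as well, at 124396816 to 124415944 and 3.2 Mb from Pex26. Pex3 and Pex7 share chromosome 10, at 13523842 to 13553142 and 19860090 to 19907674. Pex2 lies on chromosome 3 at 5560188 to 5578596, Pex13 on chromosome 11 at 23646843 to 23665883 and Pex14 on chromosome 4 at 148960535 to 149099843, all on GRCm38.p6.

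Reads of overlapping genes can be mixed, since counting is not stated to use strand. No RefSeq gene overlaps Pex26, and GENCODE places the unclassified antisense transcript Gm44014 over 133 bases of its exons. In GENCODE, Gm26904 overlaps Pex6 and Gm48714 overlaps Pex7, each with 0 shared exonic bases. In RefSeq, Gm42351, Gm9506 and Gm46722 overlap Pex14. Counts were not given for any of these genes. Pex3 overlaps the start of Adat2 (0 to 10 reads in Tau-P301L libraries and 5 to 15 in wild-type libraries), and Pex14 shares 1776 exonic bases with the antisense Gm17029 (3 to 19 reads in Tau-P301L libraries and 10 to 15 in wild-type libraries). Pex13 shares 2 exonic bases with Pus10 (39 to 223 reads in Tau-P301L libraries and 83 to 102 in wild-type libraries), and Pex5 overlaps the noncoding D830015G05Rik (0 to 23 reads in Tau-P301L libraries and none in wild-type libraries).

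Across the 9 libraries the genes whose log2 CPM ran most like that of Pex26 were Gpr183, a receptor for oxysterols (Pearson r = 0.942), Cemip2 (0.933), Prune2 (0.914), Ndufv1, a complex I subunit (0.911), and Irgm2, an immunity-related GTPase (0.906). For 4 of these 5 the groups did not overlap and were lower in Tau-P301L, as for Pex26, so these points share the genotype split. Cemip2, for one, had a Tau-P301L mean of 3.27 ± 1.53 CPM (SD, n = 5) and a wild-type mean of 14.3 ± 0.993 CPM (SD, n = 4). Cemip2, Prune2 and Ndufv1 all lie on chromosome 19. Among 12249 genes ranked by this measure, Pex3 came at place 238 (r = 0.708) and Pex6 at 266 (0.697), and the other 5 members lay between 6274 and 8882 (0.02 to -0.22). Pex3 and Pex6 also had lower estimates in Tau-P301L, so their places carry the genotype split as well. Whether they run with Pex26 apart from that split was not tested.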

How the data were processed

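Each file covered 1 library and listed genes by Entrez number. The deposited counts are whole reads that aligned to 1 place in a gene model (per the file headers). A further column holds RPKM, which the authors rescaled by a size factor for each sample (per the file headers). Reads were aligned with GSNAP to GRCm38, per the submitters' processing notes. Versions, annotation and read filters: not given in the sources used here. Of 36528 gene numbers 31049 had a symbol in the RefSeq table of GRCm38.p6. Strands and exons came from GENCODE M21 (GRCm38), and promoters from RefSeq.

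Counts were tested with edgeR 4.0.16 (R 4.3.3): TMM scaling, default low-count filter, robust quasi-likelihood F test, genotype and sex as additive terms (12250 genes, 6 residual degrees of freedom, biological coefficient of variation 0.464), and Benjamini-Hochberg adjustment over all genes at 0.05. The interaction was fitted separately. SE came from the F statistic. Intervals are 95% and, like the limit of 3 reads, cover counting error only. Likeness used log2 CPM with a prior count of 2.

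Genes named from each list were the 2 of smallest p where none passed. The members and lists were chosen with earlier results of these data known, and the motifs after seeing values. Some genes of these pathways are not reported here. All 36 pairs of libraries differed by more than counting noise (lowest chi-square/df 10.1). The fits were tested on simulated counts. Alternatives used DESeq2 1.42.0, limma 3.58.1, other scalings, filters, covariates and left-out libraries, and, for genotype, each sex alone.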

Additional observations from a re-analysis of the deposited data

Results flagged for a closer look

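In 3 of 50 groups of libraries examined, 1 library stood apart from the rest by Dixon's ratio (gap to the nearest library over the range of the group), which chance gives in about 1 in 20 groups. All 3 were in the 5 Tau-P301L libraries, where the 95% critical value is 0.71, and none concerned Pex26 or the other 7 import factors. Dnm1l was highest in Tau-P301L library 3 (ratio 0.719, 122 CPM, the other 4 at 66.3 to 82.0 CPM). Agps was highest in library 1 (0.867, 164 CPM, the others at 95.7 to 105 CPM). Tysnd1 was highest in library 2 (0.716).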

How the results depend on the processing

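The alternatives reuse the reads from which Pex26 was picked, so a sign that holds is no separate support. The log2 fold change of Pex26, -2.39 as reported, kept its sign in all 22 alternatives that gave a value. It moved to -0.61 with log2(RPKM + 1) in limma, a pseudocount above its RPKM in nearly every library, and was -1.83 with a pseudocount of 0.1. Leaving out 1 library gave -2.67 (without wild-type library 3) to -2.14 (without wild-type library 4), and leaving out Tau-P301L libraries 3 and 5 gave -2.32. A filter of 10 reads in every library removed Pex26. The genotype count of 1 gene became 18 with DESeq2 (its own filter, 15068 genes), 26 without a filter, and 0 with 10 reads in every library, with RPKM at either pseudocount, with library size or mitochondrial share in the model, without Tau-P301L libraries 3 and 5, and in females or males alone. Leaving out 1 library gave 1 without Tau-P301L library 2 or 4 and 0 otherwise. The 6 genes called for sex became 16 without a filter, 1 with the strict filter and 10 without Tau-P301L libraries 3 and 5. The 0 called for the interaction became 3 with DESeq2 (24747 genes), 22 without a filter and 1 without Tau-P301L libraries 3 and 5, and, with 1 library left out, 4 without Tau-P301L library 4, 3 without wild-type library 4, 1 without Tau-P301L library 2 and 0 otherwise.

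None of the sex or interaction values of the members passed under any alternative, and 28 of 153 for sex and 16 of 154 for the interaction changed sign. For sex, Pex13 (-0.00077 as reported) was 0.0267 with DESeq2, 0.0265 with RLE scaling, 0.0886 with limma-voom, 0.0174 and 0.0483 with RPKM at pseudocounts 1 and 0.1, 0.0836 with library size, 0.0396 with mitochondrial share and 0.10 without Tau-P301L libraries 3 and 5. Pex26 was -0.16 with limma-voom and -0.0237 and -0.0552 with RPKM at those pseudocounts, and Pex6 was 0.21 with library size and 0.24 without Tau-P301L libraries 3 and 5. With 1 library left out the sex value ran from -0.16 to 0.31 for Pex13, -0.16 to 0.34 for Pex26, -0.0920 to 0.72 for Pex3 and -0.34 to 0.17 for Pex6. For the interaction, Pex5 was -0.0810 with upper-quartile scaling, -0.0171 without a filter, -0.0336 with RPKM at pseudocount 1, -0.97 with mitochondrial share and -0.0275 without Tau-P301L libraries 3 and 5, where Pex6 was 0.45. With 1 library left out the interaction ran from -0.93 to 0.0202 for Pex13, -0.0611 to 1.05 for Pex14, -1.16 to 0.78 for Pex3, -1.42 to 1.82 for Pex5 and -0.88 to 0.22 for Pex6. Of the other named genes, Pex11a was 0.82 and Tysnd1 0.0151 in females alone, Ppargc1a was -0.25 without Tau-P301L libraries 3 and 5, and Agps ran from -0.00643 (without Tau-P301L library 1) to 0.36 with 1 library left out. The cause was not tested. No paired analysis was possible because the labels tie no library of one genotype to one of the other by number, litter or batch, and the library numbers used here were given in sample order. At 1 to 69 reads of Pex26 a library, depth limits every value given for it.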
